A study of Mus musculus with 2 samples.

Results

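Leukocytes leave the blood through a sequence of contacts with the vessel wall. The selectins Selp (P-selectin) and Sele (E-selectin) on activated endothelium slow the flowing cell, the immunoglobulin-family ligands Icam1, Icam2, Vcam1 and Madcam1 hold it by binding its integrins, and the junctional adhesion molecules Jam2 and Jam3 lie where it crosses the wall. Ackr1, an atypical chemokine receptor of venules, carries chemokines to the luminal surface, and Madcam1 is the ligand through which gut-homing lymphocytes recognise intestinal venules. These 9 genes, taken by name from the 31053 genes of the count matrices, were described in blood endothelial-like, lymphatic endothelial-like and fibroblast-like cells of the intestine and between the libraries of 2 genotypes. The genes were chosen from their UMI counts by class and library, seen in earlier results of these data, so those counts are given as a description and nothing is supported with them.

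The cells came from the intestinal lamina propria of C57BL/6 mice and were sorted as DAPI-, Ter119-, Epcam- and CD45-, that is, live cells without red cell, epithelial or leukocyte surface markers, before droplet sequencing of the 3′ ends of transcripts. Both genotypes carried ApcMin/+, the truncating Apc allele that gives intestinal adenomas. The ApcMin library came from ApcMin/+;Lef1 +/+ mice, for which no Cre is listed. The VApcMinL library came from ApcMin/+;Lef1 fl/fl;Villin-Cre mice, in which Cre acts in the intestinal epithelium, so that none of the cells described here is the cell type in which the Wnt effector Lef1 was deleted. The mice were 11 weeks old by the labels, and how many were pooled in each library is not given in the sources used here. With 1 library per genotype no difference between the genotypes could be tested. Every interval below is a 95% interval of counting error only, and it leaves out the spread between animals, between libraries and between cells.

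Barcodes with at least 1000 UMIs (unique molecular identifiers, 1 per captured transcript) and at most 20% mitochondrial UMIs were kept, 7593 of 7844 in ApcMin and 8597 of 9593 in VApcMinL. Their median depth was 9663 and 6792 UMIs, of library totals of 93203061 and 101609269 UMIs, and 24 barcodes occurred in both libraries. Cells were assigned from marker genes that included none of the 9 genes. The blood endothelial-like class held 138 cells in ApcMin (1.82% of the kept barcodes, median 4596 UMIs) and 667 in VApcMinL (7.76%, median 3667 UMIs). The lymphatic endothelial-like class held 35 and 196 cells (medians 8149 and 5711.5 UMIs), of which 35 and 178 also met the blood endothelial marker minimum, and the fibroblast-like class 3321 and 3810 cells (medians 13049 and 10014.5 UMIs). Cells of a class in ApcMin and VApcMinL held a median of 13 and 12 of the 14 blood endothelial markers. For the 8 lymphatic markers it was 7 and 7, and for the 9 fibroblast markers 9 and 9. The classes were assigned by these same markers, so the medians do not check the class names. Some genes outside the marker lists were also among those that most exceeded their mean level in the other classes, in both libraries. Examples were Fabp4 in blood endothelial-like, Lcn2 in lymphatic endothelial-like and Clec3b in fibroblast-like cells. Despite the sort, 1642 and 520 erythroid-like barcodes and 575 and 795 plasma-like cells remained, and plasma cell markers made up 0.396% and 0.772% of the blood endothelial-like UMIs. Lef1 was at 2 and 8 UMIs in blood endothelial-like, 0 and 1 in lymphatic endothelial-like and 4 and 12 in fibroblast-like cells. In the epithelial-like cells left by the sort it had 16 UMIs in 2 of 45 cells in ApcMin and 7 UMIs in 4 of 294 cells in VApcMinL, but a 3′ tag need not lie in the deleted part of the gene and so does not check the deletion.

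The genes lie on 6 chromosomes of the mouse genome (GRCm38, positions from GENCODE), each as a protein-coding gene whose exonic 3′ end the assay reads. The selectin genes are near neighbours on the plus strand of chromosome 1: Sele (ENSMUSG00000026582) occupies chr1:164048234-164057677 and Selp (ENSMUSG00000026580) chr1:164115264-164150026. Ackr1 (ENSMUSG00000037872) lies further along the same chromosome at chr1:173331886-173333750 on the minus strand. The integrin ligands are scattered: Icam1 (ENSMUSG00000037405) at chr9:21015985-21028817 on the plus strand, Icam2 (ENSMUSG00000001029) at chr11:106377656-106388075 on the minus strand, Vcam1 (ENSMUSG00000027962) at chr3:116109949-116129688 on the minus strand and Madcam1 (ENSMUSG00000020310) at chr10:79664559-79668537 on the plus strand. Of the junctional genes, Jam2 (ENSMUSG00000053062) lies at chr16:84774123-84825928 on the plus strand and Jam3 (ENSMUSG00000031990) at chr9:27097384-27155421 on the minus strand. Reads of Ackr1 may be shared with its neighbour Cadm3, an adhesion gene of nerve and glia, so Ackr1 counts are uncertain. The annotated span of Cadm3 overlaps the start of the Ackr1 span by 493 bp on the same strand, and single transcripts and exons were not compared.

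Selp, Sele and Madcam1 are printed because they were the members past 2-fold between the libraries in blood endothelial-like cells, with the 250 bases before the start of each gene from RefSeq (GRCm38.p6), 5′ to 3′ on the strand of the gene. The windows were searched on both strands for the NF-kappaB consensus, the site of the transcription factor that switches on adhesion genes under inflammatory cytokines, and capitals mark its matches.
Madcam1, chr10:79664309-79664558, plus strand: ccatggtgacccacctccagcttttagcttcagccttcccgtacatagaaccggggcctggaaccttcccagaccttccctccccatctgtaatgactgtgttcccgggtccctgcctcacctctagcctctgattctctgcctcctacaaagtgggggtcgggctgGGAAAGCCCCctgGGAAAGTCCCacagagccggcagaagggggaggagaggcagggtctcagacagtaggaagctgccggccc
Selp, chr1:164115014-164115263, plus strand: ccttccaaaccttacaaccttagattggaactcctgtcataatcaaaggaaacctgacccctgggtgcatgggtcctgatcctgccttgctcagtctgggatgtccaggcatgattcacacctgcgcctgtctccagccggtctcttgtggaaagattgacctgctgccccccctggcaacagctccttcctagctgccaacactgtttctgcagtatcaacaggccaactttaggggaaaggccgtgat
Sele, chr1:164047984-164048233, plus strand: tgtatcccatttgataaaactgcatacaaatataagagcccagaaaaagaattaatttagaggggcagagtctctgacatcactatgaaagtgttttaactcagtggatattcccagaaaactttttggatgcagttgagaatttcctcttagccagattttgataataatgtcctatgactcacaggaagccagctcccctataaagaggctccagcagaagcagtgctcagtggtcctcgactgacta
The Madcam1 window held 2 matches, both on the minus strand, which begin 83 and 70 bases before the start. The Selp and Sele windows, and those of Icam1 and Ackr1, held no match, which says only that these letters are not in these windows. The table matched 5 of the 9 genes (Icam2, Vcam1, Jam2 and Jam3 had no entry). Of all 32851 promoter windows of that length 1281 (3.9%) held a match, beside 1 of the 5.

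Most of the 9 genes had their highest level in blood endothelial-like cells, and several were also at substantial levels in the far more numerous fibroblast-like cells. Levels are given as CPM, the UMIs of a gene per 1000000 UMIs of the class, and a ratio is stated as past 2-fold only for a gene with at least 20 UMIs over the sums compared. Selp, Sele, Icam2, Madcam1, Jam2 and Jam3 were highest in blood endothelial-like cells, of the 3 classes, in both libraries. Vcam1 was highest in fibroblast-like cells in both, Ackr1 was so in ApcMin only, and Icam1 was highest in blood endothelial-like cells in ApcMin and level between the endothelial classes in VApcMinL (ratio 0.989, 0.909 to 1.08). In ApcMin 5 of the 8 members with enough UMIs were at least 2-fold higher in blood endothelial-like than in fibroblast-like cells (26.8% of all genes counted were), and in VApcMinL 6 of 9 were (16.5% of all genes). Between the endothelial classes, 4 of 6 members in ApcMin (16.7% of all genes) and 6 of 9 in VApcMinL (15.0%) were at least 2-fold higher in the blood endothelial-like class. Fibroblast-like cells exceeded lymphatic endothelial-like cells at least 2-fold in 3 of 8 members in ApcMin (12.2% of all genes) and in 4 of 8 in VApcMinL (15.9%).

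**Figure D1:**
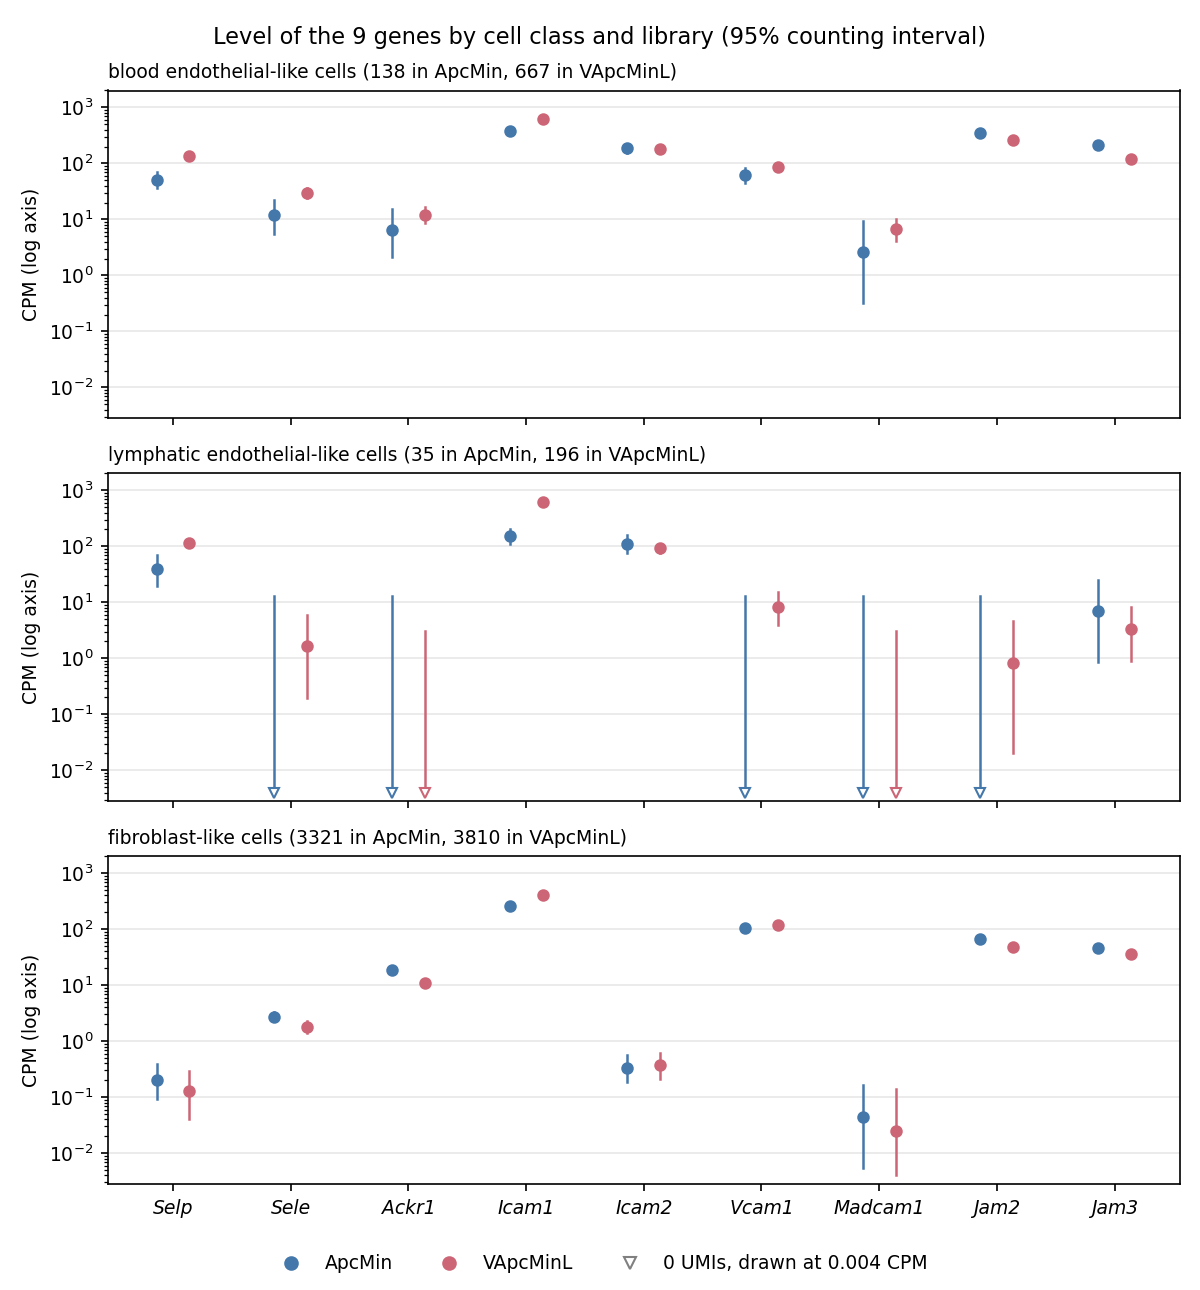
Level of each of the 9 genes (CPM, log axis) in the blood endothelial-like, lymphatic endothelial-like and fibroblast-like cells (rows of panels), with ApcMin in blue and VApcMinL in red and bars for the 95% counting interval. Selp and Icam2 stand at 51.2 to 185 CPM in blood endothelial-like cells and at 0.126 to 0.379 CPM in fibroblast-like cells, and open triangles at the bottom of the lymphatic panel mark genes with 0 UMIs.

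Selp, which is stored in endothelial granules and moved to the surface on activation, was carried by very few cells at a high level. In blood endothelial-like cells it reached 51.2 CPM (36.4 to 70.0; 39 UMIs) in ApcMin and 137 CPM (124 to 151; 409 UMIs) in VApcMinL. In ApcMin those UMIs lay in 3 of 138 cells (2.17%), with 24, 14 and 1 UMIs. In VApcMinL they lay in 18 of 667 cells (2.70%), with 3 to 102 UMIs and a median of 16.5 per carrying cell. The intervals of the shares overlapped (0.451% to 6.22% and 1.61% to 4.23%), and the levels inside the carrying cells were 986 and 3496 CPM. The ratio of the class sums was 2.68 (1.92 to 3.82), but it rests on the ApcMin side on 2 cells. Leaving out the 3 richest cells of each library left no Selp UMI in the ApcMin class, and Selp then left the members highest in blood endothelial-like cells in both libraries.

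Sele, the cytokine-induced selectin, was at a lower level. It was at 11.8 CPM (5.41 to 22.4) in the ApcMin blood endothelial-like cells, all 9 UMIs in 1 cell, and at 29.8 CPM (24.0 to 36.7) in VApcMinL, with 89 UMIs in 24 cells (3.60%). The ratio was 2.52 (1.27 to 5.70) and rests in ApcMin on that cell. With the cells of highest doublet score left out, the ApcMin class kept 14 Selp, 0 Sele, 6 Vcam1 and 0 Madcam1 UMIs, and VApcMinL 405, 89, 257 and 10, and the Selp log2 ratio was 2.80 in place of 1.42. Madcam1 had 2 UMIs in 1 ApcMin cell and 20 UMIs in 6 VApcMinL cells, which held 10, 4, 2, 2, 1 and 1. Its levels of 2.63 CPM (0.318 to 9.49) and 6.70 CPM (4.10 to 10.4) gave a ratio of 2.55 whose interval, 0.620 to 22.5, includes 1. Across every cell of the libraries Madcam1 had 5 and 29 UMIs, so the mucosal addressin was close to the limit of this depth.

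Ackr1 was detected in 2 blood endothelial-like cells of ApcMin (3 and 2 UMIs, 6.57 CPM, 2.13 to 15.3) and in 10 of VApcMinL (36 UMIs, 12.1 CPM, 8.45 to 16.7). The ratio of 1.84 had an interval of 0.719 to 6.00. Of the 10 VApcMinL cells with an Ackr1 UMI, 3 also had a Cadm3 UMI, and of the 2 in ApcMin 0 did. Vcam1, the ligand of the integrin alpha4 beta1, was at 61.7 CPM (45.4 to 82.1) in ApcMin, where 4 cells held 38, 5, 3 and 1 UMIs, and at 86.5 CPM (76.2 to 97.7) in VApcMinL, where 47 cells (7.05%) held 258 UMIs. Its ratio of 1.40 (1.02 to 1.95) rests in ApcMin on the cell with 38 UMIs.

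Cells with Selp often held other rare members. In VApcMinL 606 of the 667 blood endothelial-like cells had no UMI of Selp, Sele, Ackr1, Madcam1 or Vcam1, and 20 had UMIs of 2 or more of them. In VApcMinL, 14 of the 18 blood endothelial-like cells with a Selp UMI had a Sele UMI, 13 a Vcam1 UMI and 8 an Ackr1 UMI, and all 6 cells with a Madcam1 UMI had both Selp and Ackr1. Read the other way, 14 of the 24 cells with Sele and 13 of the 47 with Vcam1 had a Selp UMI. In ApcMin, of the 3 cells with Selp, 1 had Sele, 2 had Ackr1, 2 had Vcam1 and 1 had Madcam1. Vcam1 stood at 1214 CPM in the VApcMinL cells with Selp and at 40.5 CPM in the other blood endothelial-like cells. Icam1 stood at 1658 and 579 CPM in the same cells, 2.86-fold apart (2.46 to 3.33). Jam3 went the other way, at 17.1 CPM in the cells with Selp and 125 CPM in the others (ratio 0.14, 0.02 to 0.50), and 0 of the 3 ApcMin cells with Selp held a Jam3 UMI.

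The cells were also split by genes known from vessel segments. Lrg1, a gene of venous endothelium, was detected in 8 ApcMin and 73 VApcMinL blood endothelial-like cells, and it is no venous marker in these data at large, since 27 of the 35 and 137 of the 196 lymphatic endothelial-like cells held it. All 39 ApcMin Selp UMIs lay in those 8 cells, and in VApcMinL Selp was at 909 CPM in cells with Lrg1 and 13.6 CPM in cells without it (66.8-fold, 47.2 to 97.4). In cells with and without Vwf, the von Willebrand factor that is richest in veins, Vcam1 was at 368 and 1.57 CPM in ApcMin and at 243 and 40.7 CPM in VApcMinL. With the venous transcription factor gene Nr2f2, detected in 14 and 64 cells, the members differed: Selp was at 185 against 22.4 CPM in ApcMin and 412 against 82.7 CPM in VApcMinL, but Vcam1 at 303 against 9.59 CPM and 30.5 against 97.5 CPM. Nr2f2 too was no venous marker at large, since 34 of the 35 and 181 of the 196 lymphatic endothelial-like cells held it. Blood endothelial-like cells with Nr2f2 were also deeper, with medians of 7715.5 against 4341 UMIs in ApcMin and 6271.5 against 3426 in VApcMinL. Sele in VApcMinL was at 83.0 CPM with Vwf and 14.3 CPM without it. Cells with the capillary gene Rgcc held less Selp than cells without it, 1.57 against 307 CPM in ApcMin and 64.2 against 378 CPM in VApcMinL. The ApcMin splits rest on few cells: 3 held Selp, and 1 of the 4 with Vcam1 held 38 of its 47 UMIs. With the cells of highest doublet score left out, the ApcMin class kept 14 Selp and 6 Vcam1 UMIs. The splits were not repeated without those cells.

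The arterial gene Gja5, a connexin, was detected in 7 ApcMin and 26 VApcMinL blood endothelial-like cells, and none of them had a Selp, Sele, Ackr1 or Madcam1 UMI. Vcam1 was not absent from them: it was at 254 CPM in the 26 VApcMinL cells, against 76.7 CPM in the other cells of the class (3.31-fold, 2.32 to 4.63), and at 0 UMIs in the 7 of ApcMin. Vcam1 in VApcMinL was thus higher in cells with Vwf and in cells with Gja5, and lower in cells with Nr2f2. These splits are of 1 class of cells by genes of the same cells and are given without a test.

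**Figure D2:**
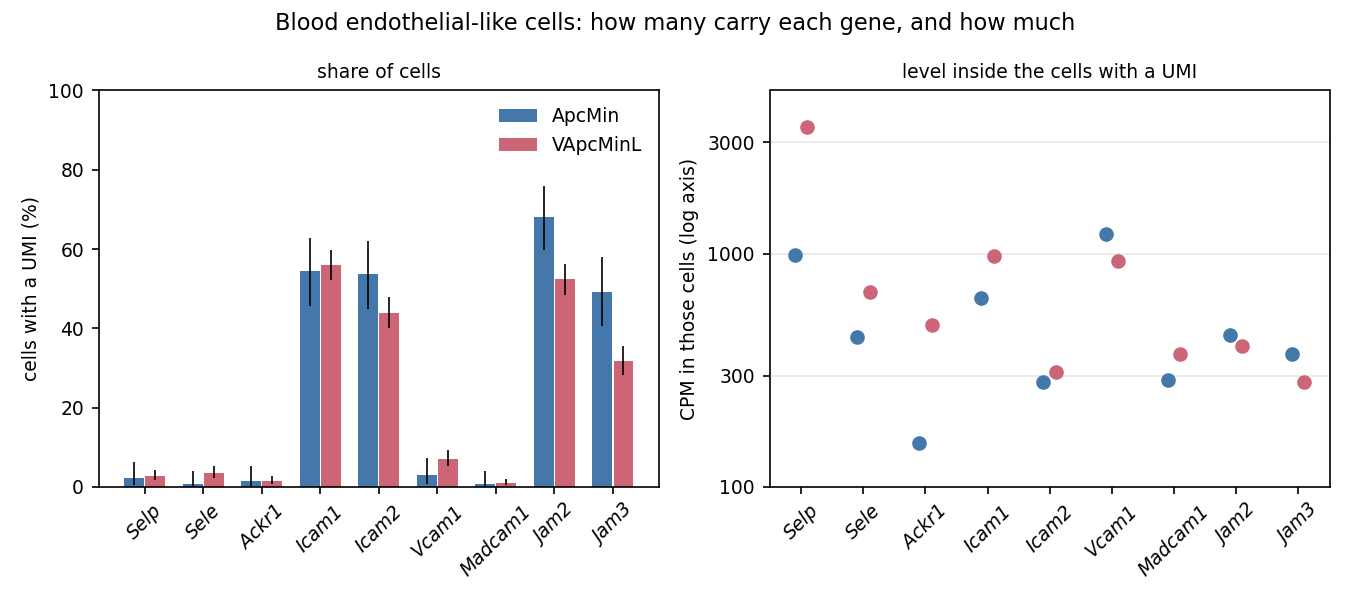
Blood endothelial-like cells of ApcMin (blue) and VApcMinL (red): on the left the share of cells with at least 1 UMI of each gene (bars, with 95% exact binomial intervals), on the right the CPM inside the cells with a UMI (log axis). Selp, Sele, Ackr1, Vcam1 and Madcam1 were found in at most 7.05% of cells, while Icam1, Icam2, Jam2 and Jam3 were found in 31.8% to 68.1%.

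Icam1, the inducible ligand of the leukocyte integrins LFA-1 and Mac-1, was found in many cells of all 3 classes. In blood endothelial-like cells it was at 382 CPM (340 to 429) in ApcMin and 621 CPM (593 to 650) in VApcMinL, in 54.3% and 55.9% of cells. Thinned to 1000 UMIs per cell the shares were 23.9% and 34.5%. The ratio of 1.62 (1.43 to 1.84) was below 2-fold, and it was 1.51 (1.28 to 1.78) among cells of at least 6000 UMIs. Among cells with no UMI of Selp, Sele, Ackr1, Madcam1 or Vcam1, 133 in ApcMin and 606 in VApcMinL, which can still include cells whose transcripts were not captured, Icam1 was at 321 and 489 CPM (ratio 1.52, 1.32 to 1.76). Free RNA carries some Icam1, at 79.6 and 89.4 CPM in droplets of 100 to 200 UMIs. The plasma-like cells held 7.73 and 10.7 CPM, which is not taken here as a measure of free RNA.

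Icam2, the constitutive endothelial ligand of LFA-1,, differed least between the libraries of the 9 genes in blood endothelial-like cells. It was at 185 CPM (156 to 218) in ApcMin and 181 CPM (166 to 197) in VApcMinL blood endothelial-like cells, with a ratio of 0.979 (0.812 to 1.19). Unlike Selp, Icam2 was spread evenly: the 5 richest cells held 19.9% and 6.84% of its UMIs. In fibroblast-like cells it had 15 UMIs in each library (0.338 and 0.379 CPM), 548-fold and 478-fold below the blood endothelial-like level.

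The junctional molecules were lower in VApcMinL. Jam2, a junctional ligand with which lymphocytes and Jam3 can pair, was at 353 CPM (312 to 398) in ApcMin and 260 CPM (242 to 279) in VApcMinL blood endothelial-like cells, in 68.1% and 52.3% of cells (ratio 0.737, 0.641 to 0.850). Jam3 reached 209 CPM (178 to 244) in ApcMin and 120 CPM (108 to 133) in VApcMinL, with a UMI in 49.3% and 31.8% of cells (ratio 0.576, 0.477 to 0.699). Neither passed 2-fold. The Jam3 ratio was 0.577 in cells of 3000 to 6000 UMIs and 0.565 in cells of at least 6000 UMIs, while the Jam2 ratio was 0.593 and 0.892 in the same bins.

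Jam2 and Jam3 differed in the splits by vessel segment genes, which do not measure the position of a cell along a vessel. Gpihbp1, used here as a capillary gene, was also detected in 28 of the 35 and 144 of the 196 lymphatic endothelial-like cells. Blood endothelial-like cells with it made up 84.1% of the class in ApcMin and 63.4% in VApcMinL. The part of this difference in the Jam3 ratio was not tested. Cells with Gpihbp1 were deeper than those without it, with medians of 4777 against 2935 UMIs in ApcMin and 4316 against 2488.5 in VApcMinL. Jam3 was higher in cells with the capillary gene Gpihbp1, which binds lipoprotein lipase, than in those without it: 235 against 21.3 CPM in ApcMin (11.1-fold, 3.01 to 92.2) and 138 against 69.4 CPM in VApcMinL (1.99-fold, 1.48 to 2.71). Between the libraries Jam3 was thus lower in VApcMinL in cells with Gpihbp1. In the 22 ApcMin and 244 VApcMinL cells without Gpihbp1 it was higher in VApcMinL. Jam3 was low in cells with Gja5, at 0 against 220 CPM in ApcMin and 12.1 against 127 CPM in VApcMinL. It was also low in cells with Vwf, at 56.0 against 239 CPM and 50.4 against 141 CPM. Jam2 was nearly level between cells with and without Vwf, with a ratio of 1.08 in each library.

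Across the 9 members in blood endothelial-like cells, 3 (Selp, Sele and Madcam1) were past 2-fold higher in VApcMinL and 0 lower, against 5.84% and 2.66% of the 9738 genes counted. Their median log2 ratio was 0.70, beside -0.05 over all those genes. In lymphatic endothelial-like cells 2 of the 3 members with enough UMIs were past 2-fold higher, against 8.21% of 7800 genes (3.72% lower), with a median of 1.59 beside -0.04. In fibroblast-like cells 0 of 7 members passed 2-fold in either direction, against 8.26% higher and 1.84% lower of 15712 genes, with a median of -0.33 beside 0.04. The members were chosen with such values known, and all 3 of the blood endothelial counts rest on at most 3 ApcMin cells each. The share of blood endothelial-like cells among the kept barcodes, the depth per cell and the free RNA also differed between the libraries, with free RNA estimated at 2.98% and 4.31% of the blood endothelial-like UMIs, and their part in these ratios was not tested.

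**Figure D3:**
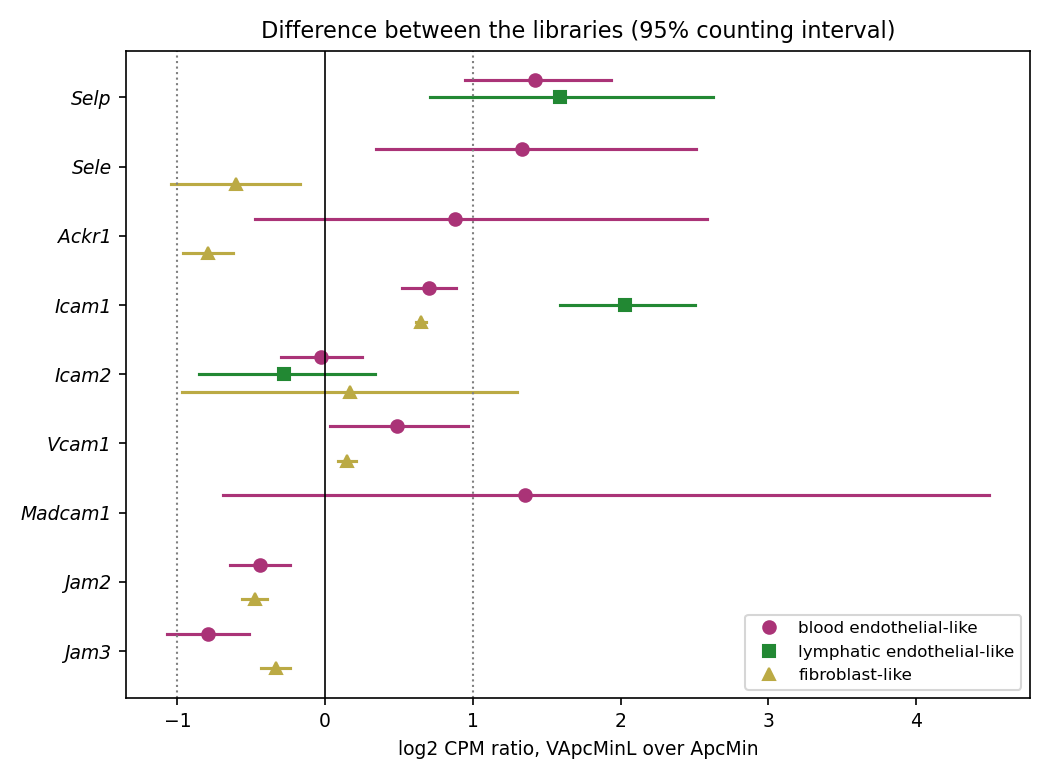
Log2 ratio of CPM, VApcMinL over ApcMin, for each gene with at least 20 UMIs over both libraries in blood endothelial-like (circles), lymphatic endothelial-like (squares) and fibroblast-like (triangles) cells, with 95% counting intervals and dotted lines at 2-fold. Icam1 lies above 0 in all 3 classes, and Jam2 and Jam3 lie below 0 in blood endothelial-like and fibroblast-like cells.

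The lymphatic endothelial-like cells carried a short set of the members: Selp, Icam1 and Icam2. Selp was at 38.5 CPM (19.2 to 68.8) in ApcMin, in 5 of 35 cells with 5, 2, 2, 1 and 1 UMIs, and at 116 CPM (97.5 to 137) in VApcMinL, in 26 of 196 cells. The shares of carrying cells were 14.3% and 13.3%, and 8.57% and 5.61% after thinning each cell to 1000 UMIs, where the blood endothelial-like class had 0.725% and 2.70%. The ratio of 3.01 (1.63 to 6.17) turned to -0.16 on the log2 scale when each cell was thinned to 1000 UMIs, where 3 and 11 cells carried the gene. The cause was not tested.

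Icam1 gave the largest ratio of any member in any class in the lymphatic endothelial-like cells. It was at 154 CPM (112 to 206) in ApcMin and 628 CPM (584 to 674) in VApcMinL, 4.08-fold apart (3.01 to 5.67), with a UMI in 42.9% and 45.4% of cells. In ApcMin 5 cells held 75.0% of its 44 UMIs, and in VApcMinL 5 cells held 38.4% of 770. Its log2 ratio of 2.03 ran from 1.45 with cells thinned to 1000 UMIs to 2.96 without the 3 richest cells of each library. Among cells of at least 6000 UMIs the levels were 158 and 672 CPM (4.24-fold, 3.06 to 6.03). In the 30 and 168 cells without a UMI of Selp, Sele, Ackr1, Madcam1 or Vcam1 they were 71.3 and 428 CPM (6.00-fold, 3.70 to 10.4). In each library Icam1 was also higher in the lymphatic cells with Selp than in those without it, 566 against 71.3 CPM in ApcMin and 1458 against 436 CPM in VApcMinL. In ApcMin 1 cell held 20 of the 44 Icam1 UMIs. Leaving out the cells of highest doublet score, 2 in ApcMin and 24 in VApcMinL, left 22 and 403 Icam1 UMIs and 4 and 83 Selp UMIs. The split by Selp was not repeated without those cells.

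Icam2 was at 112 CPM in ApcMin and 92.2 CPM in VApcMinL (ratio 0.824, 0.552 to 1.26). The remaining members were rare or undetected in the lymphatic endothelial-like cells. Jam2 had 0 UMIs in the 35 ApcMin cells and 1 UMI in the 196 of VApcMinL. The blood endothelial-like level was at least 33.7-fold higher in ApcMin and 319-fold higher in VApcMinL (57.1 to 12629). Jam3 had 2 and 4 UMIs, 29.9-fold and 36.9-fold below the blood endothelial-like level. Ackr1 and Madcam1 had no UMI in either library, where 0 of 35 cells allows a share of cells with a UMI of up to 8.57% and 0 of 196 of up to 1.53%, which does not limit the share of cells that express the gene. Sele had 2 UMIs in 1 VApcMinL cell, and Vcam1 had 10 UMIs in 4 VApcMinL cells and none in ApcMin.

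In fibroblast-like cells Icam1 and Vcam1 were broad. Icam1 was at 258 CPM (254 to 263) in ApcMin and 405 CPM (399 to 412) in VApcMinL, in 71.7% and 70.9% of cells (ratio 1.57, 1.53 to 1.61). Vcam1 reached 106 CPM (103 to 109) in ApcMin and 117 CPM (114 to 120) in VApcMinL, with a UMI in 56.8% and 47.8% of cells (ratio 1.11, 1.06 to 1.15). Jam2 was at 66.2 and 47.6 CPM (ratio 0.718, 0.678 to 0.761) and Jam3 at 46.0 and 36.5 CPM (ratio 0.794, 0.742 to 0.850). None of these passed 2-fold.

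The Icam1 level was higher in VApcMinL in each fibroblast subset named here. Subsets were cut by 3 or more UMIs of a gene. It was 1.75-fold in cells with Pi16, a marker of adventitial fibroblasts (164 and 287 CPM), 1.60-fold in cells with Adamdec1, a gene of lamina propria fibroblasts, 1.52-fold in cells with Fgfr2 and 1.41-fold in cells without the complement gene C3. The make-up of the class also differed between the libraries: cells with Pi16 were 20.7% in ApcMin and 9.0% in VApcMinL, and 638 and 1424 cells had Adamdec1.

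Vcam1 differed between subsets by more than between the libraries. It was 1.91-fold (ApcMin) and 3.18-fold (VApcMinL) higher in cells with Adamdec1 than without it, and 2.30-fold and 3.65-fold higher in cells with Fgfr2. Within the subsets its library ratio pointed both ways. In cells with Adamdec1 it was at 172 CPM in ApcMin and 212 CPM in VApcMinL (ratio 1.24), and in cells without Adamdec1 the ratio was 0.74. The 36 ApcMin and 51 VApcMinL cells with 10 or more Vcam1 UMIs shared 4 of 12 leading genes, Cxcl14, Fgfr2, AW112010 and Gm13889.

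Ackr1, known from venules, had 92.9% of its UMIs in ApcMin and 79.6% in VApcMinL in the fibroblast-like class, the largest of the 3, as had Icam1 (84.1% and 74.9%) and Vcam1 (84.5% and 76.2%). By level it was above the blood endothelial-like cells in ApcMin and close to them in VApcMinL (ratio of blood endothelial-like to fibroblast-like level 1.10, 0.762 to 1.55). It was at 19.0 CPM (17.7 to 20.3; 843 UMIs in 537 cells, 16.2%) and 10.9 CPM (433 UMIs in 295 cells, 7.74%), a ratio of 0.577 (0.512 to 0.648). In plasma-like cells, which should lack it, there were 2 and 0 UMIs. It was 4.74-fold and 5.78-fold higher in cells with Pi16 than without it. Inside the Pi16 cells the library ratio was 0.84 (0.71 to 0.99), at 46.4 and 38.9 CPM, and in the other cells 0.69, so the class ratio was further from 1 than that of either subset.

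The Cadm3 overlap bears on this count. Cadm3 was at 75.9 and 36.7 CPM in the fibroblast-like cells, and 81.8% and 67.1% of the cells with Ackr1 had a Cadm3 UMI, against 40.5% and 19.5% of all fibroblast-like cells. Ackr1 stood at 35.2 CPM in cells with Cadm3 and 4.63 CPM in cells without it in ApcMin, and at 31.0 and 4.01 CPM in VApcMinL. Whether the fibroblast UMIs come from Ackr1 or from the overlapping Cadm3 gene cannot be told apart in these counts. In lymphatic endothelial-like cells, where Ackr1 was at 0, Cadm3 had 0 and 1 UMI. The glia-like cells had the highest Cadm3 levels, 207 and 197 CPM (30 and 170 UMIs), beside 1 and 15 Ackr1 UMIs, whereas the fibroblast-like cells had 3371 and 1451 Cadm3 UMIs beside 843 and 433 of Ackr1.

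Jam2 in fibroblast-like cells lay heavily in a small set. The 66 ApcMin and 39 VApcMinL cells with 10 or more Jam2 UMIs, a set chosen after its values were seen, held 41.5% and 32.0% of the class's Jam2 UMIs. Their leading genes were largely shared between the libraries, 10 of 12, among them Thbs2 (thrombospondin 2), Abcc9, Slc12a2, Cox8b and Pla2g7. Thbs2 was at 1615 CPM in those cells and 62 CPM in the other fibroblast-like cells in ApcMin, and at 2250 and 75 CPM in VApcMinL. Abcc9 is 1 of the 8 pericyte markers, and the cells rich in Jam2 held a median of 4 and 3 of them. A cell with 5 also met the pericyte minimum and was left out, so the class rule cuts near this set. Cells that met several classes of any kind, also left out, held 24.4% of all Jam2 UMIs in ApcMin and 15.8% in VApcMinL. Cells without C3 held more Jam2 than cells with it, 372 against 39.6 CPM in ApcMin and 121 against 30.7 CPM in VApcMinL, so the library ratio was 0.32 among cells without C3 and 0.77 among cells with it.

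Sele in fibroblast-like cells was also concentrated. Its 121 and 71 UMIs lay in 16 and 25 cells, of which 5 held 76.0% and 66.2%. The 9 ApcMin and 6 VApcMinL cells with 3 or more Sele UMIs shared only 2 of 12 leading genes, the chemokine genes Ccl7 and Cxcl1. In VApcMinL a Ccl7 UMI was in 3 of the 6 cells. These Sele cells were deep, with medians of 18738 and 17245 UMIs against 13049 and 10014.5 in the class. Of them 3 in ApcMin and 1 in VApcMinL held 3 or more blood endothelial markers. The Sele cells had a median of 2 and 1 blood endothelial markers, against 1 in the other fibroblast-like cells. The Sele log2 ratio between the libraries was -0.60, and -0.60 also with doublets left out, and it reached -1.61 with cells thinned to 1000 UMIs. Selp had 9 and 5 UMIs and Madcam1 2 and 1 UMIs in the class.

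**Figure D4:**
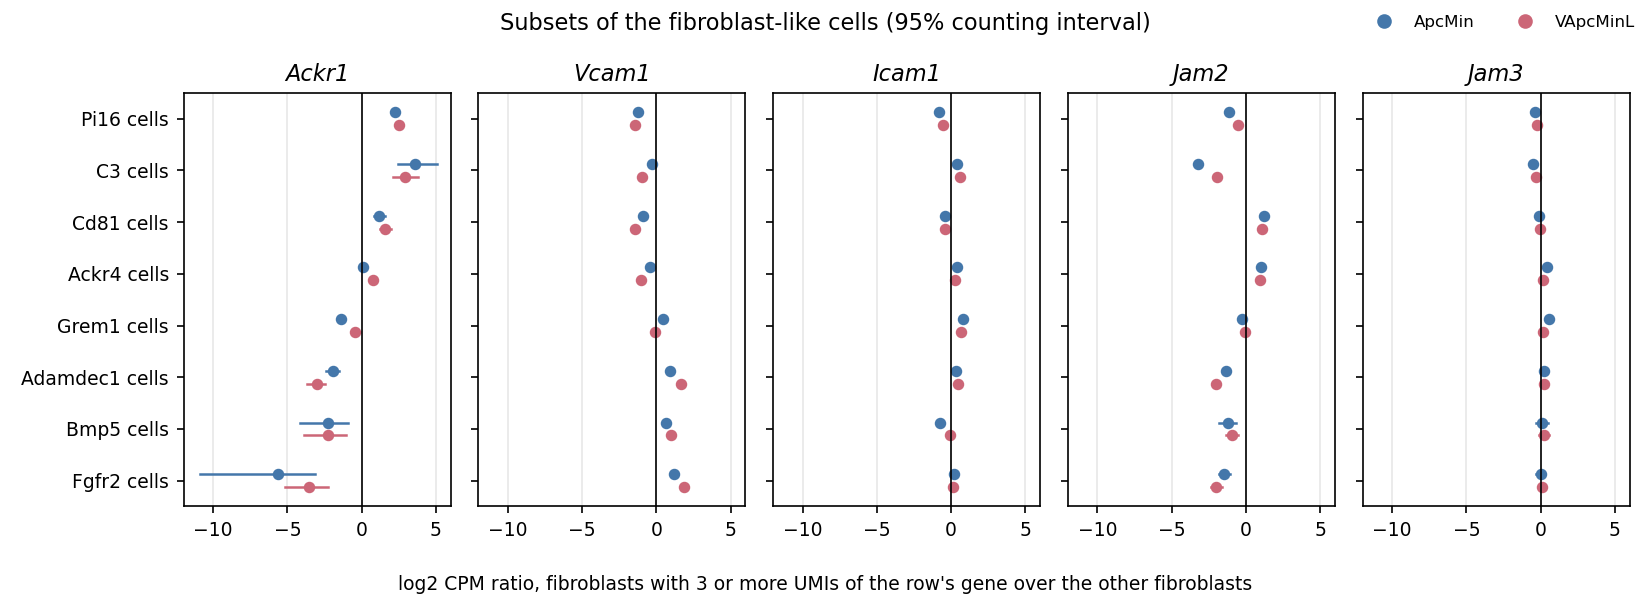
Log2 ratio of CPM in fibroblast-like cells with 3 or more UMIs of a subset gene (rows) over the other fibroblast-like cells, for Ackr1, Vcam1, Icam1, Jam2 and Jam3 (panels), with ApcMin in blue, VApcMinL in red and 95% counting intervals. Ackr1 was higher in cells with Pi16, C3 and Cd81, Vcam1 in cells with Adamdec1, Bmp5 and Fgfr2, and Jam2 in cells with Cd81 and Ackr4, in both libraries.

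The wider adhesion and inflammation genes were read from 9 lists, by counts with the same minimum of 20 UMIs and the same 2-fold limit. Over all genes counted in blood endothelial-like cells, 5.84% were past 2-fold higher in VApcMinL and 2.66% lower. A count of 1 gene in a short list is not read as a result. In blood endothelial-like cells 0 of 13 junction and transmigration molecules passed 2-fold (median log2 ratio -0.06), among them Cd99l2 at a ratio of 0.671, Cd44 at 1.66 and the poliovirus receptor Pvr at 1.38. Of 4 genes of selectin ligand synthesis and high endothelial venules, 1 was past 2-fold lower, the fucosyltransferase Fut4 at 0.378 (32.8 and 12.4 CPM), and the sulfotransferase Chst2 was at 0.602. The lymph node venule genes Glycam1 and Chst4 had at most 1 UMI. Of 3 counter-receptor genes 0 passed (Selplg, which encodes the selectin ligand PSGL-1, at 0.595). Of 13 receptors and feedback genes of TNF, IL-1 and NF-kappaB signalling 1 did, the interleukin-4 receptor gene Il4ra at 2.28 (34.2 and 77.8 CPM), with Il1r1 at 1.73 and Birc3 at 1.29 and a list median of 0.25.

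The vessel segment lists differed between the libraries in the same class, and their part in the ratios of the members was not tested. The shares over all genes of that class were again 5.84% higher and 2.66% lower. Of 6 venous genes 1 was past 2-fold higher, Lrg1 at 2.66 (19 and 198 UMIs), with Bgn at 1.64 and Vwf at 1.37 (median 0.37). Of 6 capillary genes 0 passed, with Rgcc at 0.768, Kdr at 0.798 and Car4 at 0.736 (median -0.27). Of 6 arterial genes 1 did, Gja4 (43.4 and 91.2 CPM), with Sema3g at 1.85 (median 0.36). Of 3 lymphoid tissue stromal genes 1 did, Cxcl13 at least 2.21-fold higher, with no UMI in ApcMin. Of 6 fibroblast subset genes 2 did, Grem1 at 3.32 and Adamdec1 at 2.11, both fibroblast genes whose presence in this class is at 8.71 and 38.9 CPM in VApcMinL. The 9 fibroblast markers together made up 0.0256% of the blood endothelial-like UMIs in ApcMin and 0.0358% in VApcMinL.

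In lymphatic endothelial-like cells the largest list counts were of capillary genes, 4 of 6 past 2-fold higher, with Cd36 at 5.74, Plvap at 24.5 CPM in ApcMin and 73.4 CPM in VApcMinL, and Car4 at least 4.59-fold higher. Plvap was detected in only 3 of the 35 ApcMin and 20 of the 196 VApcMinL cells. In VApcMinL those 20 cells were deeper, with a median of 9642.5 UMIs against 5349.5 in cells without Plvap. The list counts were not repeated without the cells of highest doublet score, 2 in ApcMin and 24 in VApcMinL. Among all genes counted in this class, 8.21% were past 2-fold higher and 3.72% lower. The 14 blood endothelial markers, several of which both endothelial types express, made up 0.439% and 0.473% of the lymphatic endothelial-like UMIs. Of 12 junction genes 2 passed higher (Cd34 at 2.92 and Mcam at 2.49), of 6 venous genes 1 (Vwf at 5.60), of 3 fibroblast subset genes 1 (Adamdec1 at 2.25) and of 10 NF-kappaB genes 1, the feedback inhibitor gene Tnfaip3 at 2.57 with Nfkbia at 1.71. The Vwf ratio rests on 1 of the 35 ApcMin and 2 of the 196 VApcMinL cells, the only ones with a Vwf UMI. Of 2 selectin ligand genes 1 was past 2-fold lower (Gcnt1 at 0.467). Of 2 counter-receptor, 3 arterial and 3 lymphoid stromal genes 0 passed, with the lymphoid survival cytokine gene Il7 at 0.564 and Pdpn at 0.696.

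In fibroblast-like cells 7 of 16 junction genes were past 2-fold higher in VApcMinL, but the named ones, Cdh5 at 8.53, Cxadr at 5.72 and Podxl at 4.87, were at no more than 4.12 CPM, and the blood endothelial markers made up 0.0381% and 0.0240% of the UMIs of the class. Among all genes counted in the class, 8.26% were past 2-fold higher and 1.84% lower. Of 6 capillary genes 4 passed higher, of 6 venous genes 1 and of 4 arterial genes 2, and of 9 counter-receptor genes 2, among them Itga6 at 2.46. Of 13 NF-kappaB genes 0 passed, though Il4ra was at 1.85 (22.3 and 41.3 CPM) and Il1r1 at 1.43, and of 5 selectin ligand genes 0 passed. Of 8 lymphoid tissue stromal genes 3 passed higher, Bst1 at 8.98, the B cell chemokine gene Cxcl13 at 5.81 and Tnfsf11 (RANKL) at 5.26. Only Cxcl13 was common among them, with 3 or more UMIs in 456 ApcMin and 1058 VApcMinL cells. Tnfsf11 reached 3 UMIs in 3 of 3321 and 9 of 3810 cells, and Bst1 in 0 ApcMin cells. Of 11 fibroblast subset genes 5 passed higher and 1 lower, with Wif1 at 165, Foxl1 at 3.93 and Fgfr2 at 2.74. Cells with 3 or more UMIs numbered 2 and 83 for Wif1, 1 and 3 for Foxl1 and 171 and 422 for Fgfr2 in ApcMin and VApcMinL.

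Over the 23 sums of a cell class in a library, the genes with the most similar pattern were named by Pearson's r of log2(CPM + 1), a description of sums that share libraries and depth. Selp was most like Timp4, Robo4 and Sox18 (each 0.99). Sele was most like Crispld1 (0.93), Icam2 like Gvin1 (0.94), and Jam2 like Ptpru (0.96) and Crispld1 (0.92). Jam3 was most like Igfbp7 (0.95), Icam1 like Diaph2 and Rdx (0.94), Vcam1 like Gm4262 (0.86) and Ackr1 like Dlg2 (0.91).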

How the data were processed

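The authors deposited raw UMI counts per gene and barcode, 1 matrix for each of the 2 libraries (10x Chromium 3′ v3), with no normalization. The matrix header names Cell Ranger 3.1.0, while the submitters' processing notes name Cell Ranger 2.1.1 and Seurat 3.1.1, on mm10. Depth was 93203061 and 101609269 UMIs. Barcodes needed 1000 UMIs and at most 20% mitochondrial UMIs. Cells were assigned to 13 classes from 92 marker genes, with at least 5 (both endothelial classes) or 6 (fibroblast) markers detected; cells that met both endothelial minimums were taken as lymphatic, cells that met any other combination of classes were left out, and doublets were removed only in an alternative. Counts were summed per class and library and given as CPM with exact Poisson intervals, exact binomial (Clopper-Pearson) shares and exact conditional binomial ratio intervals at 95%, all for counting error only, since amplified reads collapse to UMIs but cells are not replicates. With 1 library per genotype no test was run. A sum of 0 was set to a floor of 3 counts and the ratio given as a bound. Only genes with at least 20 UMIs were counted against the 2-fold limit.

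The members and the 9 gene lists were chosen with earlier results of these data known. Named genes were the 9 members, up to 3 genes of each list with the largest log2 ratio in a class, the 3 genes most like each member with at least 50 UMIs, and Lef1; other names, such as Cadm3 and the leading genes of rich cells, were chosen after their values were seen. Of 18 junction genes 17 matched a symbol. Positions are those of GENCODE on GRCm38, and promoter windows those of RefSeq on GRCm38.p6. The 2-fold limit and the ratio intervals were run on simulated Poisson sums with planted changes larger than 2-fold. Those sums held no spread between cells, so the run does not check ratios that rest on few cells. Work was done in Python 3.11.15 with SciPy 1.17.1, scanpy 1.11.5 (Scrublet doublet calls) and leidenalg 0.10.2, and in R 4.3.3 with edgeR 4.0.16 (TMM factors only) and DESeq2 1.42.0 (size factors only). The values of 1 listed gene are not reported here.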

Additional observations from a re-analysis of the deposited data

How the results depend on the processing

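The counts of members past 2-fold and of members highest in blood endothelial-like cells were recomputed under each alternative, and 57 of the 58 values stayed within 1.5 times the main count. The exception was the fibroblast-like count, 1 instead of 0 with cells weighted equally, where Ackr1 reached a log2 ratio of -1.07. The blood endothelial-like count ranged from 2 to 4, the lymphatic count from 2 to 3 and the count of members highest in blood endothelial-like cells from 4 to 7. With counts this small a change from 3 to 2 still lies within 1.5 times, so the limit is loose and says little about stability. Of 246 log2 ratios of single members 216 stayed within their interval, and 1 past 2-fold turned sign with its interval above 0, Selp in lymphatic endothelial-like cells (main 1.59) at -0.16 with cells thinned to 1000 UMIs; the cause was not tested. Icam2, whose main intervals included 0, also turned sign, with ranges from -0.13 to 0.22 in blood endothelial-like, -0.32 to 1.10 in lymphatic endothelial-like and -1.03 to 0.21 in fibroblast-like cells. In blood endothelial-like cells the log2 ratio ranged from 1.08 to 4.07 for Selp, 0.14 to 5.22 for Vcam1 and -1.54 to 2.19 for Ackr1, each with few ApcMin cells behind it. With the 3 richest cells of each library left out, 0 Selp and 1 Vcam1 UMIs remained in ApcMin, so 4.07 is a lower bound, and Madcam1 (main 1.35) had 0 UMIs against 4. That value and those of Madcam1 with doublets left out (-0.31) and of Ackr1 with thinned cells (-1.54) were set with ApcMin at 0 UMIs and give no direction. The log2 ratio in blood endothelial-like cells stayed between 0.63 and 0.91 for Icam1 and between -0.93 and -0.72 for Jam3. No paired analysis was possible because the design holds 1 library for every genotype, and for the same reason no replicate could be left out. Madcam1, Sele and Ackr1 rest on 2 to 9 UMIs in 1 or 2 of the ApcMin blood endothelial-like cells.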

Other observations

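Outside the 3 classes, Vcam1 was highest in myeloid-like cells, at 154 CPM in ApcMin and 220 CPM in VApcMinL (408 and 363 UMIs), above its level in every class described in the report. Glia-like cells held 104 and 60.2 CPM of Vcam1 and 55.2 and 55.6 CPM of Jam3, and pericyte-like cells held 102 and 110 CPM of Jam3 with no Jam2 UMI in either library. Icam1 was detected in every one of these classes, at 186 and 250 CPM in pericyte-like, 129 and 130 CPM in myeloid-like and 119 and 114 CPM in T or ILC-like cells. Icam2 reached 31.1 and 20.6 CPM in B-like cells. These classes held 26 to 632 cells in ApcMin and 42 to 391 in VApcMinL after a sort meant to remove CD45+ cells.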
